A study of Mus musculus with 2 samples.

Results

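LIM homeobox genes and the genes of their cofactors were compared between the distal and the proximal regions of mouse limb-mesenchymal organoids. The members were the LIM homeobox genes Lhx2, Lhx9 and Lmx1b, the LIM domain binding genes Ldb1 and Ldb2, and the LIM-only genes Lmo1, Lmo2 and Lmo4. They were taken by symbol from the authors' deposited table, and all 8 were among its 13916 genes, which it marks as protein-coding. Embryonic limb mesenchymal cells of genotype Slc:ICR had been kept for 48 h as organoids in medium with Fgf8b and Wnt3a, and 5 organoids from 4 surrogate cultures were frozen at day 2. In photo-isolation chemistry, cDNA is made inside a section with caged primers, and illumination frees the cDNA of the areas of interest, here on 10 µm sections at 365 nm for 3 min. The distal library pooled 5 barcoded regions and the proximal library pooled 5 others, so the groups shared strain, medium and age of culture and differed in the area that was lit. The regions of a side went through the same library, so a side and its library cannot be told apart. The labels do not tie regions to organoids; with 4 cultures and 5 regions a side, some regions of a side share a culture, and both sides come from the same set of organoids. All p-values and SDs here measure the spread between regions, and the p-values are too small for a comparison of cultures.

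LIM homeodomain proteins bind DNA through the homeodomain and bind LDB proteins through their LIM domains. LDB proteins pair with themselves and so join LIM homeodomain proteins and other DNA-binding proteins into larger complexes, while LMO proteins hold LIM domains without a homeodomain and bind LDB proteins too, as bridges or as competitors. In the limb bud, LHX2 and LHX9 act in distal mesenchyme under the ectodermal ridge, where they take part in the response to FGF and in outgrowth, and LMX1B marks and specifies dorsal mesenchyme. LDB1 is the widely expressed LDB protein, and LDB2 is its close relative.

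In GENCODE M21, on the GRCm38 build that the submitters' processing notes name, Lhx2 lies on the plus strand of chromosome 2 from 38339281 to 38369733 and Ldb2 on the minus strand of chromosome 5 from 44472132 to 44799680. Ldb1 lies on the minus strand of chromosome 19 from 46031570 to 46045214, and its exons overlap exons of Pprc1 on the opposite strand. Reads of these 2 genes cannot be told apart there, since the sources used here do not say whether strand was counted. Lhx9 lies on chromosome 1 from 138825186 to 138848577 and Lmx1b on chromosome 2 from 33560965 to 33640511, both on the minus strand. Lmo1 (chromosome 7, 109138572 to 109175207) and Lmo4 (chromosome 3, 144188530 to 144205220) are on the minus strand too, and Lmo2 (chromosome 2, 103957986 to 103981878) is on the plus strand. No exon of the other 7 members overlapped an exon of another gene, and no member had a near-identical copy. RefSeq (GRCm38.p6) held promoter entries for 6 of the 8 members, Ldb2 and Lmo2 being the others. The sequence upstream of the outermost start site is shown for Lhx2, for the cofactor genes Ldb1 and Lmo4, whose log2 changes were also positive, and for Lmo1, which was hardly detected. Each runs 5′ to 3′ over 240 bases that end 11 bases before the start site, outside all annotated exons, with capitals for a match to GGGCGG (a GC box, reverse complement CCGCCC) or to TAATTA (a homeodomain core, its own reverse complement).
Lhx2, chr2:38339031-38339270, plus strand: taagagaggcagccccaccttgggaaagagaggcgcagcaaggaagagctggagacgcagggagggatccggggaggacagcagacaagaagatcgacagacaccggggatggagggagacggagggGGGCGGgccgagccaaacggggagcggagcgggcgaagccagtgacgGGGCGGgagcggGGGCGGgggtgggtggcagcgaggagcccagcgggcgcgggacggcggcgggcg
Ldb1, chr19:46045322-46045561, minus strand: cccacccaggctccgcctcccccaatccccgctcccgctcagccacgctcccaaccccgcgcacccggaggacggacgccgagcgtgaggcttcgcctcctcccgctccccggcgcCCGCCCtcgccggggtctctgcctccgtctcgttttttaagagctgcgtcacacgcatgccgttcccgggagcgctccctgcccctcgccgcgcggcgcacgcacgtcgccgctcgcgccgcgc
Lmo4, chr3:144205266-144205505, minus strand: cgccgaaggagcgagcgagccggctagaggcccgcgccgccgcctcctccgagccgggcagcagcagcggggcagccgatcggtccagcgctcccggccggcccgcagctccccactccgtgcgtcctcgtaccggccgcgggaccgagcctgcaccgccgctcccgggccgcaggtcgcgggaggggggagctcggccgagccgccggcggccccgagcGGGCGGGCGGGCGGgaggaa
Lmo1, chr7:109175218-109175457, minus strand: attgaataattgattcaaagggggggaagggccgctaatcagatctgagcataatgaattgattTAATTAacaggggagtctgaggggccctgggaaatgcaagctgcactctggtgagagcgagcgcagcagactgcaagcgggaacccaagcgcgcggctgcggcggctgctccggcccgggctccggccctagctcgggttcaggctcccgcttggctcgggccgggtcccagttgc
GGGCGG was found on either strand in the Lhx2, Ldb1 and Lmo4 windows and in 31.3% of 32851 RefSeq windows of this length, with 3 overlapping matches in Lmo4. TAATTA was found in these windows only upstream of Lmo1, and in 4.77% of all windows. An ETS core, CCGGAA, was searched too and was held by 11.2% of windows but by none of the 4 shown. The same was true of the TATA box letters TATAAA, which 12.1% of windows held.

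Coverage was thin. The size factors, which scale a region's counts for its depth, ranged from 0.329 to 0.832 over the distal regions and from 1.502 to 2.42 over the proximal regions, and 3 counts over a side corresponded to a normalized level of 1.02 in distal and 0.311 in proximal. Markers of the labelled cell type, limb mesenchyme, were present: the authors' deposited table listed all 10 markers, with means over all regions of 159 for Prrx1, 99.2 for Pdgfra and 74.0 for Twist1. Pdgfra and Tbx5 were lower in distal, at log2 ratios (log2 of distal over proximal, also called log2 changes) of -0.86 and -1.41 by the authors' deposited table. Of 10 markers of surface ectoderm, 5 were listed, all with a mean under 1. Muscle markers were present on the proximal side: 5 of 10 were called, all lower in distal. The 7 with recovered counts summed to normalized levels of 0 to 1.96 in the distal and 14.0 to 33.3 in the proximal regions. Those 7 leave out Actc1, Myl1 and Myh3, the muscle markers of highest mean. Over all 10 the summed level was about 12.3 in distal and 134.8 in proximal, with Actc1 at about 8.27 and 71.5. Of 10 cartilage markers 8 were listed and 1 was called: Sox9, an early cartilage regulator, which had the highest mean of all genes and was higher in distal like Lhx2, with a log2 ratio of 0.69 (SE 0.13, adjusted p 4.7e-05) by the authors' deposited table. The matrix genes Col9a1 and Col2a1, at means of 193 and 148, had log2 ratios of 0.14 and 0.57 by the authors' deposited table. The matrix gene Acan, at a mean of 4.43, had 7 distal and 69 proximal counts, or normalized levels of 2.39 and 7.15. None of these matrix genes was called, and the median log2 change of the 8 listed markers was -0.0041. Of 10 neural and glial markers 9 were listed and none was called, with summed normalized counts of 1.20 to 12.2 in the distal and 4.98 to 14.1 in the proximal regions. The part of these markers in the results on LIM genes was not tested.

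The first question was which LIM genes differed between the sides. A gene was called where the authors' deposited table has an adjusted p below 0.05, and 2 of the 8 members were called: Lhx2 was higher in distal, and Ldb2 was lower in distal. Over all genes of the authors' deposited table, 136 genes were called, or 0.977%, with 0.395% higher and 0.582% lower in distal. The authors' deposited table gave 5 of the 8 members an unadjusted p under 0.05, 4 of them with a positive log2 change, against 6.07% of all genes (2.56% higher and 3.51% lower in distal). Low means seldom reach a call, and 6 of the 8 members had a mean of 10 or more. Of the 3757 genes with such a mean, 3.03% were called (1.36% higher and 1.68% lower in distal), and 12.0% had an unadjusted p under 0.05 (6.41% higher and 5.59% lower). The median log2 change in the authors' deposited table was 0.52 over the members and 0.07 over all genes.

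**Figure D1:**
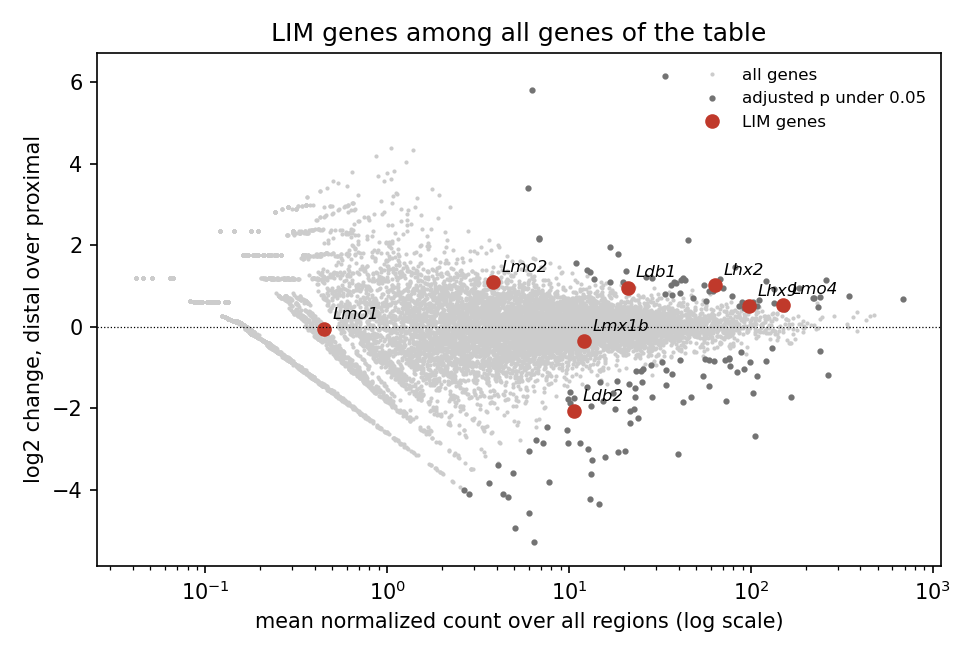
Log2 change (distal over proximal) against the mean normalized count over all regions, on a log scale, for every gene of the authors' deposited table; dark points have an adjusted p under 0.05 and red points are the 8 LIM genes. Lhx2 stands among the dark points at a log2 change of 1.02, and Ldb2 at -2.08.

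Of the LIM homeobox genes, Lhx2 had the clearest difference. The mean and log2 change of the authors' deposited table correspond to a normalized level of 85.4 in distal and 42.0 in proximal, or about 250.2 distal and 405.5 proximal counts. Its level was thus 2.03-fold higher in distal (95% interval 1.61 to 2.58). For Lhx2 the authors' deposited table has a log2 ratio of 1.02 (SE 0.17, adjusted p 2.22e-06). Among the 496 genes whose mean was within a factor of 1.5 of that of Lhx2, 5 had a larger log2 change and 28 were called.

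Lhx9, the close relative of Lhx2, was not called. It corresponded to a level of 115 in distal and 81.0 in proximal, from about 337.3 and 781.9 counts. Its log2 ratio in the authors' deposited table was 0.51 (SE 0.21), where the p was 0.0141 before and 0.499 after adjustment. At that standard error a log2 change of at least 0.73 would have been needed for a call, so a log2 change as large as that of Lhx2 would have passed. The 95% intervals were 0.68 to 1.37 for the log2 change of Lhx2 and 0.10 to 0.91 for that of Lhx9. These intervals overlap, and the difference between the relatives was not tested.

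Lmx1b, the dorsal gene, showed no detectable difference. Its counts in each region were recovered from the table. Within the range searched, only 1 set of whole numbers gave the deposited mean and log2 change, with the dispersion set by the deposited standard error. The distal regions, in order of falling size factor, held 7, 10, 7, 3 and 4 counts, which are normalized levels of 8.41, 14.3, 12.5, 5.88 and 12.2. The proximal regions held 20, 46, 28, 17 and 20 counts, at levels of 8.27, 20.8, 14.3, 10.9 and 13.3. The sides overlapped, since only the highest proximal region lay above all distal ones and none lay below them. The log2 change in the authors' deposited table was -0.35 (SE 0.39, adjusted p 0.991), and its 95% interval ran from -1.12 to 0.41.

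**Figure D2:**
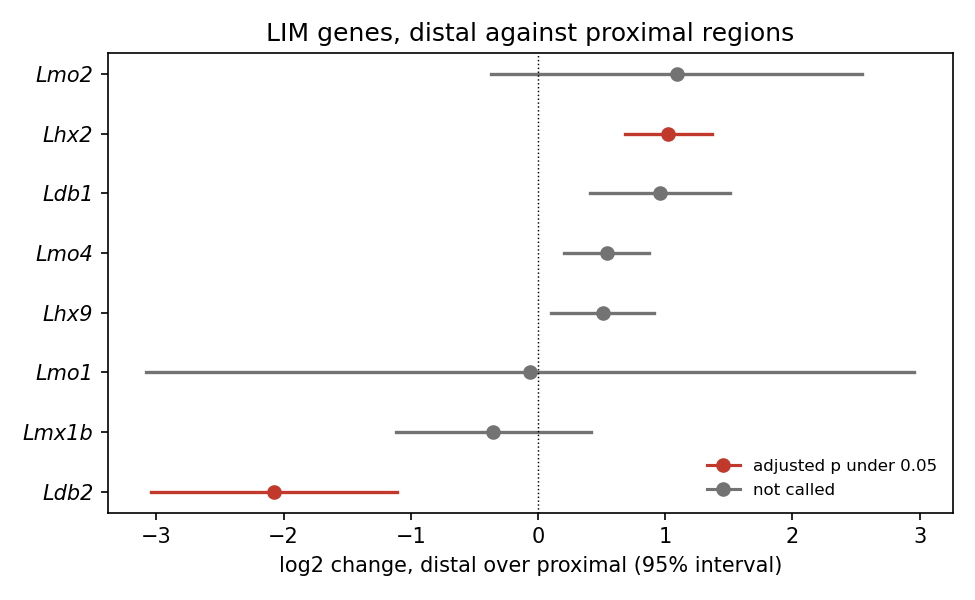
Log2 change (distal over proximal, horizontal axis) of each LIM gene with its 95% interval from the deposited standard error; red marks an adjusted p under 0.05. The intervals of Lhx2 and Ldb2 lie on opposite sides of 0, those of Ldb1, Lmo4 and Lhx9 lie above 0 without a call, and those of Lmo2, Lmo1 and Lmx1b cross 0.

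The LDB genes had log2 changes of opposite sign, and of the 2 only Ldb2 was called. For Ldb2, the distal regions held 3, 1, 6, 2 and 0 counts, at normalized levels of 3.61, 1.43, 10.7, 3.92 and 0. The proximal regions held 39, 39, 25, 32 and 30 counts, at levels of 16.1, 17.6, 12.8, 20.4 and 20.0. All 5 proximal regions lay above all 5 distal regions, and the nearest pair was 10.7 in distal and 12.8 in proximal. Over regions, which are not separate cultures, the mean was 3.94 ± 4.13 (SD, n = 5 regions) in distal and 17.4 ± 3.11 (SD, n = 5 regions) in proximal. In these pooled cells, fewer cells of a type and less RNA per cell cannot be told apart. In all, 12 distal counts (exact 95% Poisson interval 6.20 to 21) stood against 165 proximal counts (141 to 192). Ldb2 was 4.22-fold lower in distal (95% interval 2.16 to 8.23), and the authors' deposited table has a log2 ratio of -2.08 (SE 0.49, adjusted p 0.0046) for it. Among all calls lower in distal, 30 had a log2 change below that of Ldb2. The change of Ldb2 went with the lower muscle markers of the distal side given above, whose part in it was not tested.

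Ldb1, by contrast, was not called and had a positive log2 change. Its distal regions held 27, 17, 10, 19 and 9 counts, at normalized levels of 32.4, 24.3, 17.9, 37.2 and 27.4. Its proximal regions held 45, 37, 28, 15 and 17 counts, at levels of 18.6, 16.7, 14.3, 9.57 and 11.3. Of the distal regions, 4 lay above all proximal ones, and the lowest, at 17.9, lay under the highest proximal region at 18.6. The mean was 27.9 ± 7.43 (SD, n = 5 regions) in distal and 14.1 ± 3.73 (SD, n = 5 regions) in proximal. A second set of counts matched Ldb1 at a wider tolerance, so these counts per region are less certain than those of Ldb2. For Ldb1 the authors' deposited table has a log2 ratio of 0.96 (SE 0.28, adjusted p 0.0663). A log2 change of at least 0.98 would have been needed for a call, so Ldb1 fell just short. With p-values adjusted over genes whose mean was 10 or more, the adjusted p of Ldb1 was 0.0211 by the Benjamini-Hochberg method, computed from the authors' deposited p-values. It was 0.114 with log2 changes centred on the median of all genes, and these were the lowest and the highest values over the alternatives.

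**Figure D3:**
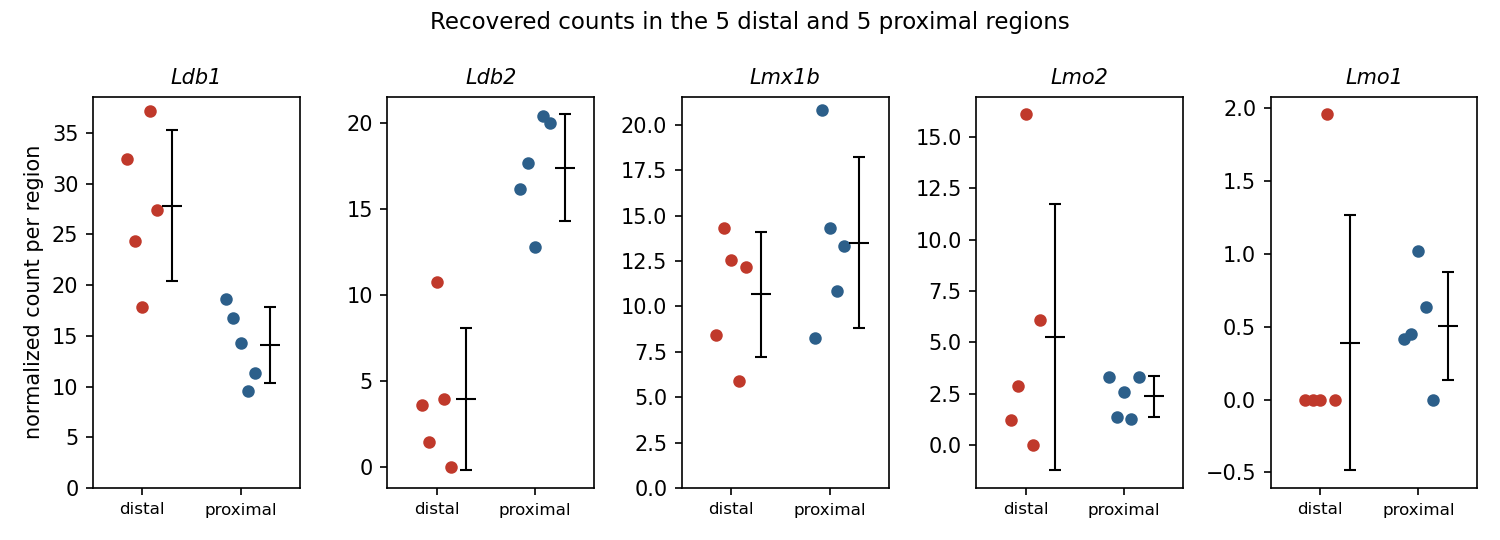
Normalized count in each of the 5 distal (red) and 5 proximal (blue) regions for the LIM genes with recovered counts; the black mark and bar are the mean and SD over the 5 regions. Ldb2 is separated between the sides, Ldb1 overlaps by 1 distal region, and Lmx1b, Lmo2 and Lmo1 overlap widely; each panel has its own axis.

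The balance of the LDB genes was described within each region, where the size factor cancels; this ratio was chosen after the values were seen and carries no test. Ldb1 made up 90.0%, 94.4%, 62.5%, 90.5% and 100% of the Ldb1 and Ldb2 counts of the distal regions, from 9 to 30 counts each. It made up 53.6%, 48.7%, 52.8%, 31.9% and 36.2% in the proximal regions, from 47 to 84 counts each. The sides did not overlap, with 62.5% as the lowest distal and 53.6% as the highest proximal share. The Wilson interval of that lowest distal share, 38.6 to 81.5%, holds the highest proximal share. The mean share was 87.5% ± 14.5 (SD, n = 5 regions) in distal and 44.6% ± 9.96 (SD, n = 5 regions) in proximal. These counts are not corrected for transcript length, so the share compares sides and does not rank the LDB genes.

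**Figure D4:**
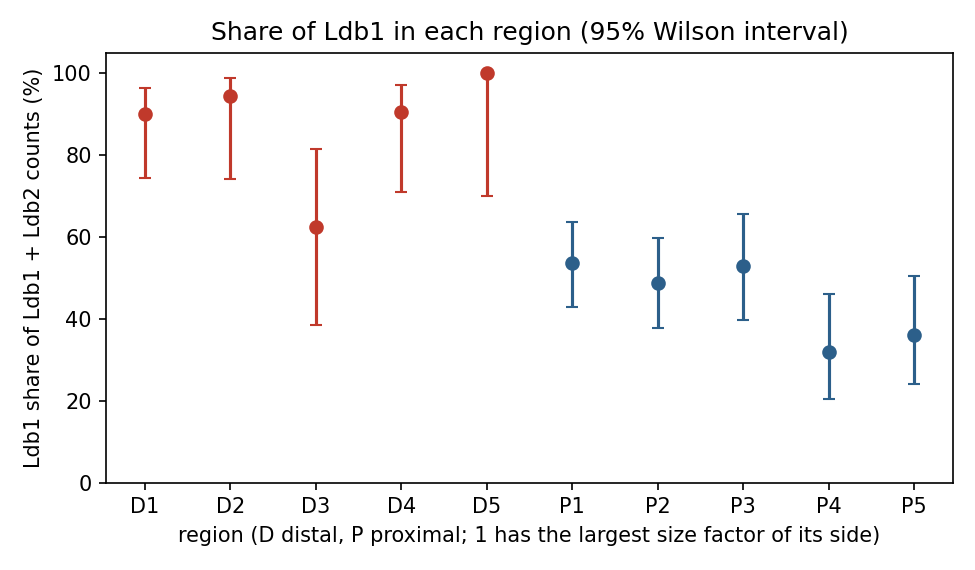
Ldb1 counts as a percentage of Ldb1 plus Ldb2 counts (vertical axis) in each region (horizontal axis, distal red, proximal blue), with 95% Wilson intervals that cover counting error only. The distal shares run from 62.5% to 100% and the proximal shares from 31.9% to 53.6%.

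No LIM-only gene was called. Lmo4, which codes for a LIM-only protein that binds LDB1, corresponded to a level of 178 in distal and 123 in proximal, from about 522.1 and 1184 counts. In the authors' deposited table its log2 ratio was 0.54 (SE 0.17), with p = 0.00148 before and 0.124 after adjustment. It would have needed a log2 change of at least 0.595 for a call, and with p-values adjusted over genes whose mean was 10 or more its adjusted p was 0.0412 by the Benjamini-Hochberg method. With log2 changes centred on the median of all genes it was 0.258, and these were the lowest and the highest values over the alternatives.

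Lmo2 is best known from blood and endothelial progenitors, where it bridges LDB1 and other DNA-binding proteins. Its distal regions held 1, 2, 9, 0 and 2 counts, at normalized levels of 1.20, 2.86, 16.1, 0 and 6.09, and its proximal regions held 8, 3, 5, 2 and 5 counts, at levels of 3.31, 1.36, 2.56, 1.28 and 3.33. The sides overlapped, and 9 of its 14 distal counts came from 1 region. Its log2 ratio of 1.09 by the authors' deposited table came with an SE of 0.74 (adjusted p 0.991), and without that region a fit with the same dispersion gave -0.10. Of 19 markers of blood and endothelium, 10 were listed and none was called. The 9 with recovered counts summed to levels of 0 to 8.59 in the distal regions, with 5.37 in the region where Lmo2 was highest, and to 0.511 to 5.99 in the proximal regions. Each of these 9 had a mean under 1. Erg, the listed marker left out, had a mean of 28.5 and about 70.9 distal and 317 proximal counts. It could not be resolved by region. The part of these markers in the level of Lmo2 was not tested.

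Lmo1 was hardly detected. It had 1 count in the distal regions together and 5 in the proximal regions, at 1, 1, 2, 1 and 0 counts. Per unit of size factor this is a distal level 0.659 times the proximal one, with an exact 95% interval for counting error of 0.0139 to 5.89, so no difference was detectable at this depth. That pooled ratio is not the fitted change given for the other members. For Lmo1 the fitted log2 ratio in the authors' deposited table was -0.06 (SE 1.54).

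**Figure D5:**
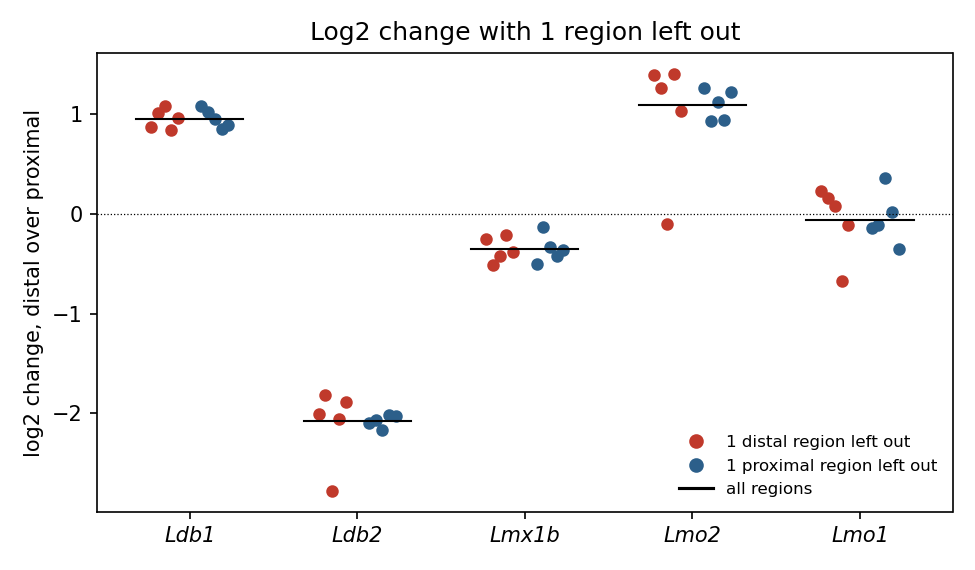
Log2 change (distal over proximal, vertical axis) of the 5 genes with recovered counts when each region is left out in turn, with the dispersion held; black lines mark the values with all regions. Ldb2 stays between -2.78 and -1.81 and Ldb1 between 0.84 and 1.08, while Lmo2 falls to -0.10 without 1 distal region.

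Leaving out each region in turn kept Ldb2 past the statistic that the calls of the table required, 3.50 in absolute size. The log2 change of Ldb2 stayed between -2.78 and -1.81, and that of Ldb1 between 0.84 and 1.08. Ldb1 passed the same limit without the distal region of lowest Ldb1 level, at 1.08, and without the proximal region of largest size factor, at 1.08. Lmx1b stayed negative throughout, between -0.51 and -0.13. The 3 members with the highest means, Lhx2, Lhx9 and Lmo4, could not be examined this way, since many sets of counts match their values.

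Genes whose log2 change was nearest to that of Lhx2 or Lhx9, at a mean within a factor of 1.5, were listed next, over the 2 sides. For Lhx2 they were Wdr89, Mef2c, Enc1, Tspan18 and Rpl10-ps3, with log2 ratios of 1.03, 0.96, 0.90, 1.15 and 1.17 by the authors' deposited table. All but Enc1 were called. For Lhx9 they were Tcf7l1, Cdc42, Auts2, Igf1r and Kpnb1, whose log2 changes in the authors' deposited table lay within 0.0153 of that of Lhx9. Of these, Cdc42 and Auts2 were called, with adjusted p-values of 0.019 and 0.0463 and SEs of 0.13 and 0.15 by the authors' deposited table.

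Related genes were counted in 6 further lists, which were chosen with earlier results of these data known. They held 94 other genes of the table, and 5 of the 94 (5.32%) were called, all higher in distal. Calls higher in distal made up 0.395% of all genes and 1.36% of genes with a mean of 10 or more. All of the 5 but Tfap2a had such a mean. The other LIM homeobox genes were hardly detected: 3 of 9 were listed, Lhx8, Isl1 and Isl2, with 3, 1 and 1 counts, all in proximal regions. Of 9 other LIM-only and LIM cofactor genes, 8 were listed and none was called, with a median log2 change of 0.36. The authors' deposited table gave log2 changes of 0.02 for Ssbp3, 0.49 for Ssbp2 and 0.45 for Fhl1, the former pair coding for single-stranded DNA binding proteins that associate with LDB1. Their SEs in the authors' deposited table were 0.14, 0.24 and 0.24.

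The DNA-binding partners of LMO and LDB proteins did not pass the test either. Of 14 listed partners 8 were in the table, with a median log2 change of -0.16. The E proteins, which pair with other basic helix-loop-helix proteins, had log2 ratios of 0.25 for Tcf4, -0.000959 for Tcf3 and -0.32 for Tcf12 by the authors' deposited table. Tal1, the blood partner of LMO2, had 1 count on each side.

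Around LHX2 and LHX9, the list of limb outgrowth genes had 22 of its 24 genes in the table, without Fgf8 and Shh, and 4 were called, all higher in distal, with a median log2 change of 0.41. The called genes were Hoxd13, a homeobox gene of the digit region, Msx1, a homeobox gene of distal mesenchyme, and the AP-2 factor genes Tfap2a and Tfap2b. By the authors' deposited table their log2 ratios were 1.16, 1.12, 2.19 and 1.79 in that order. Recovered counts of Tfap2a were 30 in distal and 22 in proximal, a normalized level of 10.2 against 2.28. Fgf10, the mesenchymal FGF that maintains the ridge, had 23 distal and 45 proximal counts and was not called, and the authors' deposited table has a log2 ratio of 0.75 (SE 0.48) for it. Grem1, a BMP antagonist of the outgrowth loop, had 2 distal and 38 proximal counts, and in the authors' deposited table its p was 0.0321 before and 0.755 after adjustment. The highest means of the list, beside Hoxd13, were those of Gli3 and Fgfr1, with log2 ratios of 0.19 and -0.11 by the authors' deposited table and no call.

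Around LMX1B, 13 of 16 genes of dorsoventral patterning and matrix were listed and none was called. The median log2 change was -0.05 over the 13 and -0.49 over the 8 with a mean of at least 1. An unadjusted p under 0.05 with a negative log2 change was found for 3.51% of all genes and 5.59% of genes with a mean of 10 or more. It was found for 4 of the 13, and none of the 13 had such a p with a positive log2 change. These were Fzd1, a WNT receptor gene, Gdf5, a joint growth factor gene, Lrp6, a WNT coreceptor gene, and Dcn, which codes for decorin, with adjusted p-values of 0.172, 0.46, 0.725 and 0.866 by the authors' deposited table. Their highest means belonged to Matn4, Lrp6 and Col4a1, with log2 ratios of -0.05, -0.55 and 0.12 by the authors' deposited table. En1, the ventral ectoderm gene, had 1 distal and 5 proximal counts. Among the genes whose LIM domains serve the cytoskeleton, 40 of 43 were listed, with a median log2 change of -0.18. The single call there was Prickle1, a planar polarity gene, which was 2.30-fold higher in distal (log2 ratio 1.20, SE 0.29, adjusted p 0.00686, all from the authors' deposited table). Lpp and Lasp1, the listed genes of highest mean there, had log2 ratios of -0.29 and 0.40 by the authors' deposited table.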

How the data were processed

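The values come from a table in which the authors compared the sides gene by gene. Per the file headers, the mean is a signal, here normalized counts, and the recovery below found it to be an average over 10 regions. The log2 change (log2 ratio of distal to proximal) and its SE are as deposited, the deposited statistic is a score equal to their ratio, and the p-value and adjusted p are as deposited. Per the submitters' processing notes the builds were mm10 and GRCm38; aligner, counter and annotation are not given in the sources used here.

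The lowest means repeat on steps worth 1 count in 1 region. A value counted as a step where at least 20 genes shared it and lower steps did not add up to it. The 10 steps found give 10 size factors, and the side of each was read from the direction of the log2 change between genes with 1 and 2 counts there. A negative binomial fit with fitted counts held at or above 0.5 and dispersions up to 10 was written with numpy 2.4.6. Sets of whole counts were sought within a limited range around the fitted count of each region. A matching set had to give the deposited mean and, within 3e-09, the deposited log2 change. For each set the dispersion was chosen to give the deposited standard error. Of 132 other genes tried in the table, 132 had exactly 1 such set. Another 31 were not tried because too many sets were possible. All these genes had means below those of Ldb2, Lmx1b and Ldb1, which were 10.7, 12.1 and 21.0. The check on other genes thus does not cover the means of these members. The size factors were refined on 328 genes with exactly 1 matching set of counts. Besides these, 2 genes had no matching counts and were not used. Regions are ordered by size factor, not by barcode. For Ldb1 a second set matched at a tolerance of 2e-08, so its counts per region are less certain than the others. For Lhx2, Lhx9 and Lmo4 levels and counts per side were computed from the mean and the log2 change. In 73 genes with recovered counts this was off by a median of 4.34% in distal and 3.95% in proximal. The largest errors there were 15% and 12.6%. Those 73 genes had lower means than Lhx2, Lhx9 and Lmo4, so the error at the means of these members was not checked.

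Intervals of log2 changes are 1.96 standard errors, and Wilson, Poisson and binomial intervals cover counting error only. A copy was a match to the last 300 bases of a coding transcript over at least 200 bases at 95% identity (BLAST 2.17.0, GENCODE M21). The genes named are the 8 members, called genes and the 3 highest means of the other lists, and the 5 genes nearest in log2 change to Lhx2 and to Lhx9; Fgf10, Grem1, Tal1, En1, Fzd1, Gdf5, Dcn, Acan, Lmo3, Gata3 and Ablim3 were added after their values were seen. Members and lists were chosen with earlier results of these data known.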

Additional observations from a re-analysis of the deposited data

Results flagged for a closer look

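Of 12 groups of 5 regions examined for a region far from the others, 2 held one. The limit used flags about 1 in 20 groups of independent, normally distributed values. Low counts and percentages are not such values, and some groups share counts, so the number flagged cannot be set against that rate. In the distal regions, the Ldb1 share of 62.5% lay far from the other distal shares, with a gap of 0.733 of the range against a limit of 0.71. That region also had the highest distal Ldb2 and Lmo2 levels, 10.7 and 16.1, and the lowest distal Ldb1 level, 17.9. Its summed level of the 7 muscle markers with recovered counts was 1.79, which is 1 count. No distal region held more than 1 count of these 7, too few to compare the distal regions. Actc1, Myh3 and Myl1, with about 24.2, 7.38 and 1.43 distal counts, could not be resolved by region. The part of muscle in this region was thus not tested. For Lmo1, the distal level of 1.96 was the only one above 0, and it was a single count. A group with only 1 region above 0 is always flagged.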

How the results depend on the processing

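Under the alternative thresholds, adjustments and centrings, 57 results of single members kept direction and call, 4 newly passed the limit and 0 were lost or reversed. Only the centrings alter a log2 change, so direction could not reverse under the others. A stricter limit cannot add a call either, so many of the 57 were fixed in advance. The number of called members was 2, and 4 with p-values adjusted over genes whose mean was 10 or more, where Ldb1 and Lmo4 were added; Ldb1 also passed at a threshold of 0.1 and, at an adjusted p of 0.0437, over genes whose mean was 1 or more. Fewer genes are tested there. Centring on the median of all genes, 0.07, moved both away from the limit, to 0.114 for Ldb1 and 0.258 for Lmo4. The median of genes with a mean above the median was -0.02. Centring on it moved both nearer to the limit, to 0.0522 for Ldb1 and 0.0894 for Lmo4, without passing it. The number of calls over all genes was 136, and 89 at a threshold of 0.01. With 1 region left out, Lmo2 ranged from -0.10 to 1.41 and Lmo1 from -0.67 to 0.36. Requiring at least 30 genes on a step drops 1 distal region. No paired analysis was possible because the recovered regions carry no barcode number. Depth limits the distal side most: the size factors total 2.93 there and 9.65 in proximal.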

Other observations

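The sign of a deposited log2 change does not follow the counts at 1 count. Isl1, Isl2 and Lmo3 each had 1 count, in a proximal region, and the authors' deposited table has them at a log2 ratio of 1.19, towards distal. Gata3, which can bind LMO proteins, had 6 distal and 63 proximal counts, and the authors' deposited table has a log2 ratio of -1.68 with p = 0.0227 before and 0.629 after adjustment. Ablim3, an actin-binding LIM gene, had 0 distal and 37 proximal counts and by the authors' deposited table its adjusted p was 0.127. Both genes were chosen after their values were seen.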
